A study of Mus musculus with 4 samples.

Results

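The BCL2 family genes described here are 10 members that set the threshold of mitochondrial cell death: 3 anti-apoptotic genes (Bcl2, Bcl2l1, Mcl1) and 7 pro-apoptotic genes (Bax, Bak1, Bcl2l11, Bbc3, Pmaip1, Bad, Bid). They were taken by name from 21775 protein-coding genes placed on the mouse assembly GRCm38. For each, the called peaks overlapping the gene plus 1 kb on either side were collected from 4 CUT&Tag libraries. In CUT&Tag, antibody-bound sites in intact cells are cut and tagged for sequencing by a transposase that the antibody recruits. The groups were 2 libraries with an antibody to PPP2CA, the catalytic subunit of the phosphatase PP2A, and 2 control libraries with immunoglobulin G (IgG). All came from haematopoietic stem cells of mouse bone marrow with wild-type Ppp2ca, at 100000 cells. Strain, sex, age and the number of animals are not given in the labels. The libraries answer where the PPP2CA antibody left tags, and no perturbation or expression was measured.

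Proteins of this family meet at the outer mitochondrial membrane. BAX and BAK, once activated, open pores that release cytochrome c. BCL2, BCL-XL (from Bcl2l1) and MCL1 hold them in check. The BH3-only proteins BIM (from Bcl2l11), PUMA (Bbc3), NOXA (Pmaip1), BAD and BID act against that restraint in response to stress signals. Mouse haematopoietic stem cells are known to need Mcl1 to survive. PP2A is known to act on several of the proteins, BAD among them, as an enzyme that removes phosphate; tags at the genes are a different kind of measurement.

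All 10 members had a peak in both PPP2CA libraries, and none had a peak in either IgG library. By the same rule 47.1% of all protein-coding genes had a peak in both PPP2CA libraries, 51.5% in PPP2CA 1 and 52.4% in PPP2CA 2. The anti-apoptotic members were called at 3 of 3 and the pro-apoptotic members at 7 of 7, so presence of a peak did not separate them. The share depends on gene length: it was 31.8% of genes under 10 kb, a class that holds Mcl1, Bax, Bak1, Bbc3 and Pmaip1. It was 54.9% of genes from 10 kb to under 50 kb (Bcl2l11, Bad, Bid) and 57.1% of genes of 50 kb or more (Bcl2, Bcl2l1). Of all protein-coding genes, 2.08% had an IgG peak, so 0 of 10 lies near the background and says nothing particular about the members.

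The member windows held 19 PPP2CA 1 peaks and 18 PPP2CA 2 peaks. Merged where they overlapped, they formed 21 regions, of which 17 were found in both libraries. In 16 of these a peak of each library met the window itself; the exception lay past the Mcl1 end. The anti-apoptotic genes held 5 of these 17 regions and the pro-apoptotic genes 12. Of the 17, 11 lay within 1 kb of an annotated transcription start (for Pmaip1, of a gene boundary), 3 lay deeper inside a gene and 3 lay at a gene end. Exons and introns were not annotated in the gene table used. Of the members, 7 of 10 had 2 or more regions found in both libraries, against 8.01% of all protein-coding genes. Genes without any peak count in this share and in the next ones, whereas every member had a peak. With a peak of each library required to meet the window, it was 6 of 10 members, against 7.81% of all protein-coding genes. With a summit of each library required inside the window, it was 5 of 10 members, without Mcl1 and Bax, against 7.15% of all protein-coding genes.

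The sequence before the start is shown for 5 members that span the range of signal. They are Mcl1 (most fragments), Bbc3 (the widest start region), Bcl2l11 (a start overlapped by the end of another gene), Bcl2 (the most CpG-rich window) and Bak1 (fewest fragments). Each is the 250 bases before a start from RefSeq (GRCm38.p6), 5′ to 3′ on the gene's strand. Capitals mark matches on either strand to the GC box GGGCGG, the CCAAT box, the ETS core CCGGAA or the FOXO core TGTTTAC. A pair of GC boxes overlaps in Bbc3.
Mcl1, chr3:95658471-95658720, plus strand: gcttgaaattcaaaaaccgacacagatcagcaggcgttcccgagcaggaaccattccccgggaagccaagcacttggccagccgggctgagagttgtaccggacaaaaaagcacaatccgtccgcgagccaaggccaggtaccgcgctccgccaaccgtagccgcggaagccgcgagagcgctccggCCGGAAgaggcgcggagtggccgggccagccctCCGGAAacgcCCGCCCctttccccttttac
Bbc3, chr7:16309333-16309582, plus strand: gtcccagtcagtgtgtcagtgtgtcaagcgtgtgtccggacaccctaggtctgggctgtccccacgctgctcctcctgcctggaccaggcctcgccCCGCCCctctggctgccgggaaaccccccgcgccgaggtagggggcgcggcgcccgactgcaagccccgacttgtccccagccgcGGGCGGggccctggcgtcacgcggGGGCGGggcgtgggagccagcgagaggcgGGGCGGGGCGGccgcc
Bcl2l11, chr2:128125788-128126037, plus strand: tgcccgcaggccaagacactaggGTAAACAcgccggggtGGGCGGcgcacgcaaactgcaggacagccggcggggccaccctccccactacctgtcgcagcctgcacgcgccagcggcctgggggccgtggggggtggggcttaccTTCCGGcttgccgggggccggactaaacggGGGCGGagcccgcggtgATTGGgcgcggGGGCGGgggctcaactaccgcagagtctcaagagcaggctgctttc
Bcl2, chr1:106714291-106714540, minus strand: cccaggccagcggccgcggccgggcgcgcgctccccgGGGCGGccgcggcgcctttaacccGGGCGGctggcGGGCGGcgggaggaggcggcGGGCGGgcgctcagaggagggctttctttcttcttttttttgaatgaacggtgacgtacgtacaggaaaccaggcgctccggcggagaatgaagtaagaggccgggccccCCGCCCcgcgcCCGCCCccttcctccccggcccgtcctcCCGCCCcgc
Bak1, chr17:27028628-27028877, minus strand: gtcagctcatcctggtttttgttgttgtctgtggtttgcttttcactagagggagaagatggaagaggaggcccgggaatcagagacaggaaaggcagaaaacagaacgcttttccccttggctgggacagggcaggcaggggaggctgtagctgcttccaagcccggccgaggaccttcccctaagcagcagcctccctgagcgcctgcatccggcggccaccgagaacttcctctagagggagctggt
The Bak1 stretch holds none of the motifs searched, and that of Bcl2 holds GC boxes alone.

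**Figure D1:**
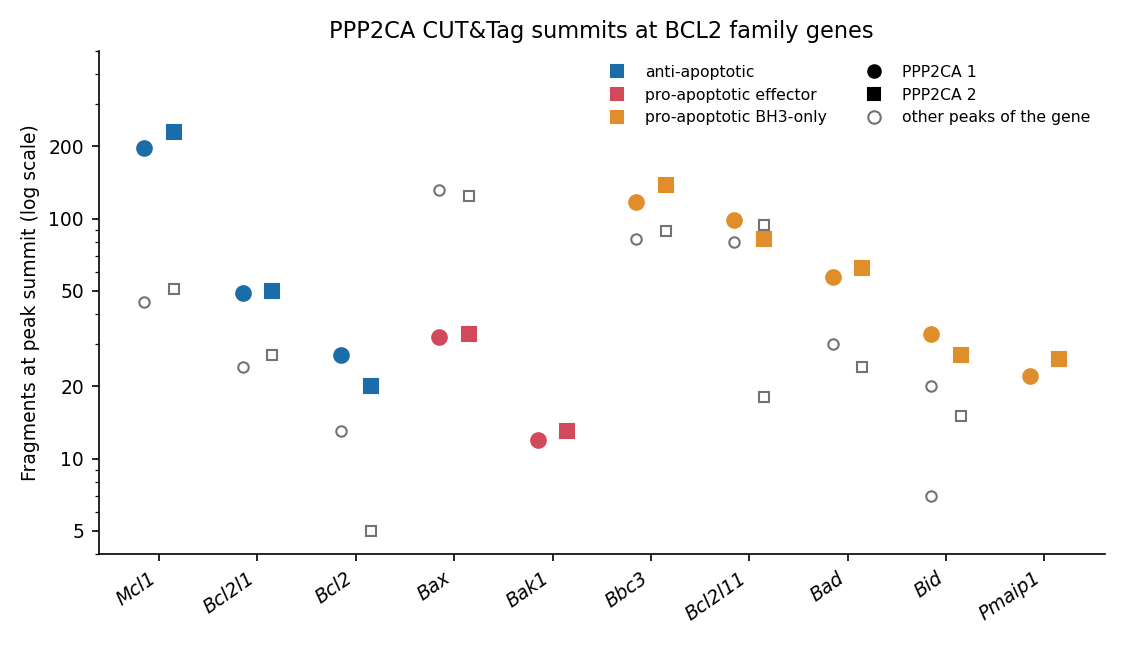
Fragments at each called summit (log axis) for the 10 members; circles are PPP2CA 1 and squares PPP2CA 2, filled for the strongest start region and open for other peaks of the gene, coloured by role. Among the filled points Mcl1 is highest with 197 and 230 fragments and Bak1 lowest with 12 and 13; neither IgG library has a point because it had no peak in these windows.

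Height is given as the number of fragments at a peak's summit, recovered from the authors' fold and −log10 p; the local background is the number that the authors' peak calling expected there, and its source (the library itself or IgG) is not stated. In these bulk libraries, fewer cells with a tag and fewer tags per cell cannot be told apart. Among the anti-apoptotic genes, Mcl1 (chromosome 3, 95656944 to 95663179) had the strongest start region, at 95658206 to 95659651. Its summit held 197 fragments in PPP2CA 1 and 230 in PPP2CA 2, with a fold over local background of 8.75 and 8.18. It exceeded the strongest start peak of 97.6% and 97.8% of the genes with a marked start. Both summits lay just past the start, by 28 and 174 bp. A second Mcl1 region past the gene end, at 95664102 to 95665134, held 45 and 51 fragments at a fold of 2.44 and 2.32; its PPP2CA 2 peak began outside the 1 kb window.

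Bcl2l1 (chromosome 2, 152758732 to 152833803, minus strand) was intermediate. Its start region, at 152830579 to 152831808, held 49 and 50 fragments in PPP2CA 1 and 2, at a fold of 8.90 and 8.46. The gene has 3 annotated starts, and the region reached 2 of them, with the summits between them. The remaining start, whose promoter window holds 1 CpG, had no peak within 1 kb in both libraries. A second region, at 152788609 to 152789911, lay more than 39 kb into the gene, with 24 and 27 fragments.

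Bcl2 (chromosome 1, 106538176 to 106714290, minus strand) was the weakest anti-apoptotic gene in this assay. The region over its start, at 106713963 to 106715077, held 27 and 20 fragments in PPP2CA 1 and 2, at a fold of 5.57 and 4.40. The libraries were scaled by the ratio of their summed fragments at summits shared across the genome (1.09 for PPP2CA 2 over PPP2CA 1). So scaled, PPP2CA 2 stood at 0.681 times PPP2CA 1, the lowest ratio of the 17 regions. Another pair of Bcl2 regions were each found in 1 library alone, with 13 fragments in PPP2CA 1 and 5 in PPP2CA 2. Along the longest member gene, with 176115 bp, no region found in both libraries lay away from the start.

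Of the pro-apoptotic effectors, Bax was close to the median of marked starts and Bak1 far below it. Bax (chromosome 7, 45461695 to 45466903, minus strand) had a start region at 45466351 to 45467237 with 32 and 33 fragments in PPP2CA 1 and 2, at a fold of 6.95 and 6.26. The tallest peak in the Bax window, with 132 and 124 fragments at 45459195 to 45461187, covered the start of Ftl1, the ferritin light chain gene, which lies past the Bax end. It met the rule by lying within 1 kb of Bax, and the strongest start region is therefore used for Bax from here on.

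Bak1 (chromosome 17, 27019812 to 27028627, minus strand) was the weakest member. Its only region, at 27027666 to 27028508, held 12 and 13 fragments in PPP2CA 1 and 2, at a fold of 3.81 and 3.61. Among the 9 members with an annotated start, it was the only one whose start region did not cover one: it began 119 bp downstream, and its summits lay 643 and 835 bp downstream. Bak1 lies within Ggnbp1, a gene of the opposite strand with an annotated start 751 bp from the region. It was lost when peaks were held to a −log10 q of at least 5 or to at least 20 fragments.

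Of the BH3-only genes, Bbc3 and Bcl2l11 were the tallest. Bbc3 (chromosome 7, 16308398 to 16318334) had 117 and 138 fragments in PPP2CA 1 and 2 in a start region of 2358 bp, at 16308727 to 16311084, which covered all 3 of its annotated starts. A second Bbc3 region inside the gene, at 16312457 to 16314075, held 82 and 89 fragments. Both Bbc3 regions were tall in both libraries, while the fold was 3.65 and 3.72 at the start and 2.61 and 2.48 inside.

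Bcl2l11 (chromosome 2, 128126038 to 128162547) had a region at each of its 2 annotated starts. The region at the upstream start, at 128125445 to 128126365, held 99 and 82 fragments in PPP2CA 1 and 2, at a fold of 5.40 and 4.17. At the downstream start, at 128126868 to 128128051, it held 80 and 94 fragments, at a fold of 4.29 and 4.53. Which start was taller thus differed between the libraries. The upstream region also covers the annotated end of Acoxl, an acyl-CoA oxidase-like gene that overlaps the start of Bcl2l11.

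Bad (chromosome 19, 6941861 to 6951905) had a start region at 6941143 to 6942605 with 57 and 62 fragments in PPP2CA 1 and 2, at a fold of 8.66 and 7.68. The region also covers the start of Gpr137, which runs the other way from the same place, and the peaks cannot be assigned to either gene. A further region at the Bad end, at 6950754 to 6952405, held 30 and 24 fragments.

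Bid and Pmaip1 were lower. Bid (chromosome 6, 120893119 to 120917062, minus strand) had 33 and 27 fragments in PPP2CA 1 and 2 over its start, at 120916248 to 120917063, and 20 and 15 fragments in a region inside the gene at 120915015 to 120915449. Pmaip1 (chromosome 18, 66458604 to 66465558) had a single region, which ran from 66458229 to 66459269 over the gene boundary with the lower coordinate. Its summit held 22 and 26 fragments at a fold of 5.92 and 7.35, and no annotated start was at hand for it.

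**Figure D2:**
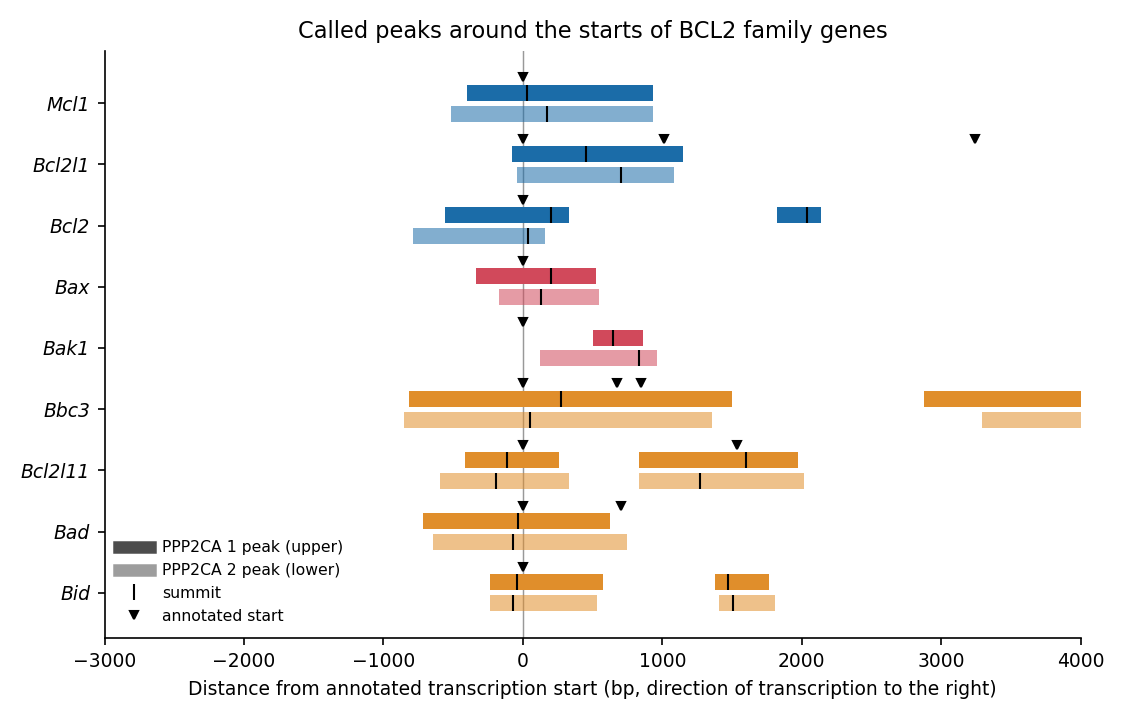
Called peaks (bars) and summits (ticks) of PPP2CA 1 (upper) and PPP2CA 2 (lower) by distance in bp from an annotated start, in the direction of transcription, for the 9 members with an annotated start; triangles are annotated starts. Peaks cover a start in each member shown but Bak1, whose summits lie 643 and 835 bp downstream, and Bcl2l11 has a peak at each of its 2 starts.

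Ordered by summed fragments of the strongest start region, the members ran Mcl1, Bbc3, Bcl2l11, Bad, Bcl2l1, Bax, Bid, Pmaip1, Bcl2 and Bak1. The sums were 427 (95% exact Poisson interval 387 to 469) for Mcl1, 255 (225 to 288) for Bbc3, 181 (156 to 209) for Bcl2l11 and 119 (98.6 to 142) for Bad. The intervals of neighbours among these 4 did not overlap, nor did their values in single libraries. From Bad down to Bak1, with 25 (16.2 to 36.9), every neighbouring pair had overlapping intervals, so the order of neighbours in that stretch is not resolved. Members farther apart in it did separate: the interval of Bad lay above those of Bax and all members below Bax, and that of Bak1 lay below those of Bid, Bax, Bcl2l1 and Bad. Bbc3 exceeded the strongest start peak of 93.0% and 93.9% of genes with a marked start in PPP2CA 1 and 2, and Bcl2l11 that of 90.3% and 87.8%. The shares were 48.1% and 31.3% for Bcl2 and 12.6% and 13.5% for Bak1. The intervals cover counting error only, as fragments copied by PCR are not independent and summits are the highest points of their peaks.

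Anti-apoptotic and pro-apoptotic genes overlapped throughout this order. At the strongest start region the 3 anti-apoptotic genes had a lowest, median and highest of 27, 49 and 197 fragments in PPP2CA 1, and the 7 pro-apoptotic genes 12, 33 and 117. In PPP2CA 2 the same values were 20, 50 and 230 for the anti-apoptotic genes and 13, 33 and 138 for the pro-apoptotic genes. The highest member was anti-apoptotic and the lowest pro-apoptotic, but Bcl2 lay below 5 of the 7 pro-apoptotic genes in PPP2CA 1 and below 6 in PPP2CA 2, the difference being its place against Pmaip1. With so few genes, which are not replicates of a condition, no test was made. Over all genes with a marked start, the median was 28 and 30 fragments in PPP2CA 1 and 2.

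A strongest peak of at least 50 fragments in both PPP2CA libraries was present in 5 of 10 members (Mcl1, Bax, Bcl2l11, Bbc3, Bad), against 12.2% of all protein-coding genes, or in 4 of 10 when Bax was read at its own start. The share of all genes was 30.5% for at least 20 fragments, a mark that Bak1 alone of the members missed. It was 4.27% for at least 100 fragments, which Mcl1 and Bbc3 passed, as did Bax through the Ftl1 peak. Genes without a peak count in these shares, and the members were chosen with results of these data known.

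The fold followed a different order from the fragments, because the local background differed between the genes. This background cannot be read as control noise. If it came from the library itself, it holds the PPP2CA signal around the summit. At Bbc3 the background at the start summit was 31.3 and 36.4 fragments in PPP2CA 1 and 2, which is 39.9 and 45.4 times the lowest background of those libraries. It was 21.6 and 27.2 fragments at Mcl1 and 17.5 and 18.9 at Bcl2l11. At the other members it lay between 2.41 fragments (Bak1, PPP2CA 1) and 7.20 fragments (Bad, PPP2CA 2). By fold, the highest members were Bcl2l1, Mcl1 and Bad in both libraries, and the lowest were Bbc3 and Bak1, which lie at opposite ends of the range of fragments among pro-apoptotic genes.

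**Figure D3:**
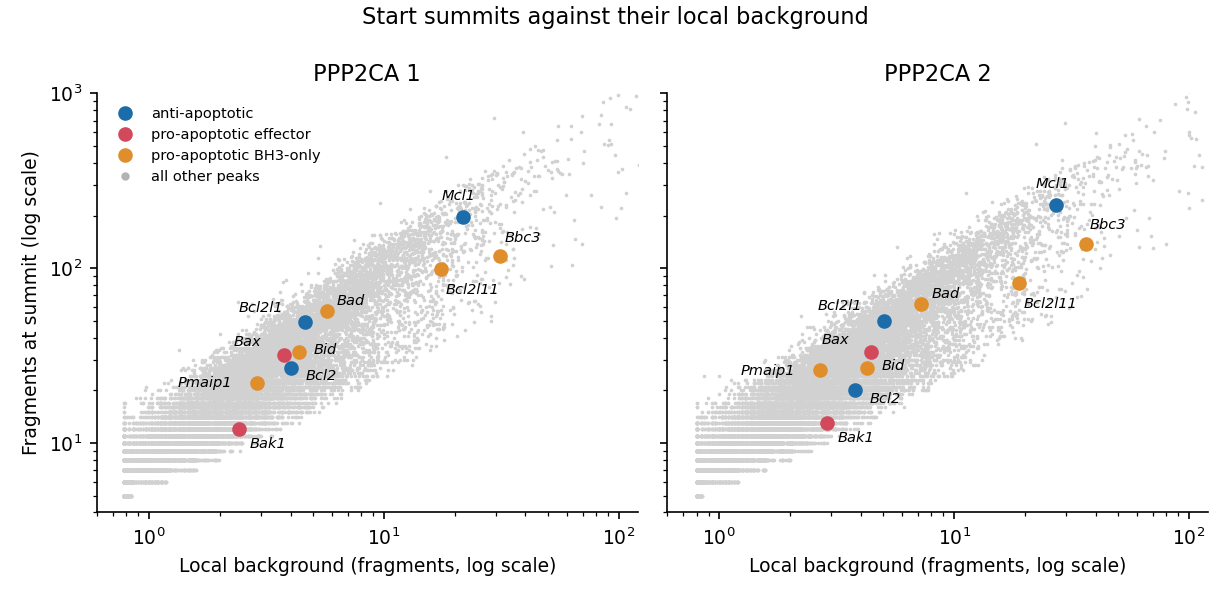
Fragments at the strongest start summit of each member against the local background there (both log axes), with all other peaks of the library in grey; peaks beyond the axis ends are not drawn. Bbc3 combines many fragments (117 and 138) with the highest local background of the members, 31.3 and 36.4 fragments. Bad and Bcl2l1 reach a higher fold from a lower background. The background may itself hold PPP2CA signal around a summit.

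At summits called in both PPP2CA libraries within 100 bp of each other, the libraries differed by no more than sampling noise. The chi-square over degrees of freedom was 0.783 for 6930 such summits across the genome, and the libraries were counted as 1 sample. Summits without such a partner were left out beforehand, so the value does not measure agreement over all peaks. At the 17 member regions the ratio of PPP2CA 2 to PPP2CA 1, scaled by the summed fragments at those shared summits, ran from 0.681 to 1.09. Its median was 0.996. All 17 regions were within 1.5-fold between the libraries. The other 4 regions were found in 1 library alone, at Bcl2 (1 in each library), Bcl2l11 (PPP2CA 2, 18 fragments) and Bid (PPP2CA 1, 7 fragments).

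How much the missing IgG peaks say differed between members, because the IgG libraries were shallow. The lowest background of a list, taken here as a stand-in for depth, was 9.34 to 9.61 times as high for PPP2CA as for IgG. An IgG library with the same profile as PPP2CA would hold 20.5 to 24.6 fragments at the Mcl1 start summit, 12.2 to 14.8 at Bbc3 and 8.54 to 10.6 at Bcl2l11. It would hold 5.93 to 6.64 at Bad, 5.10 to 5.35 at Bcl2l1 and 3.33 to 3.53 at Bax. These 6 lie above 3 fragments, the lowest IgG summit that was called anywhere, although a higher local background would raise that limit. The levels are expectations, and that of Bax lay under the median called IgG summit of 4 fragments. At Bcl2 (2.08 to 2.89), Pmaip1 (2.29 to 2.78) and Bak1 (1.25 to 1.39) the level of an equal IgG signal would lie under that lowest called summit, so its detection at this depth was uncertain, and Bid (2.81 to 3.53) lay at the limit.

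Most of the annotated member starts were CpG-rich. The choice of members did not name CpG number, but it was made with results of these data known, and peaks went with CpG number. RefSeq promoter windows (250 bases before to 50 after a start) matched 9 of the 10 members, with 15 windows. The windows held a lowest, median and highest of 1, 27 and 44 CpG, against a median of 13 over all 21262 windows of protein-coding genes. At least 20 CpG were held by 11 of the 15 windows, against 35.9% of all windows. That share counts starts with and without a peak alike. All 9 matched members had a PPP2CA peak in both libraries within 1 kb of a start, against 42.2% of genes with a window.

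Across all starts the marked share moved with CpG number. It was 73.2% of starts with at least 20 CpG, 53.5% with 10 to 19, 18.1% with 5 to 9 and 3.51% with 0 to 4. Their part in the members' count was not tested. Among the members, CpG number and fragments did not run in strictly the same order, and Bcl2 departed most. Its window held 44 CpG, the most of all, with 27 and 20 fragments. That of Mcl1 held 33 CpG with 197 and 230 fragments. The windows of Bbc3 held 30, 34 and 39 CpG and those of Bcl2l11 27 and 38, and both genes were tall. The lower Bid and Bax held 22 and 19. A relation within the members was not tested. The Bak1 window held 11 CpG, with the fewest fragments of the members.

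**Figure D4:**
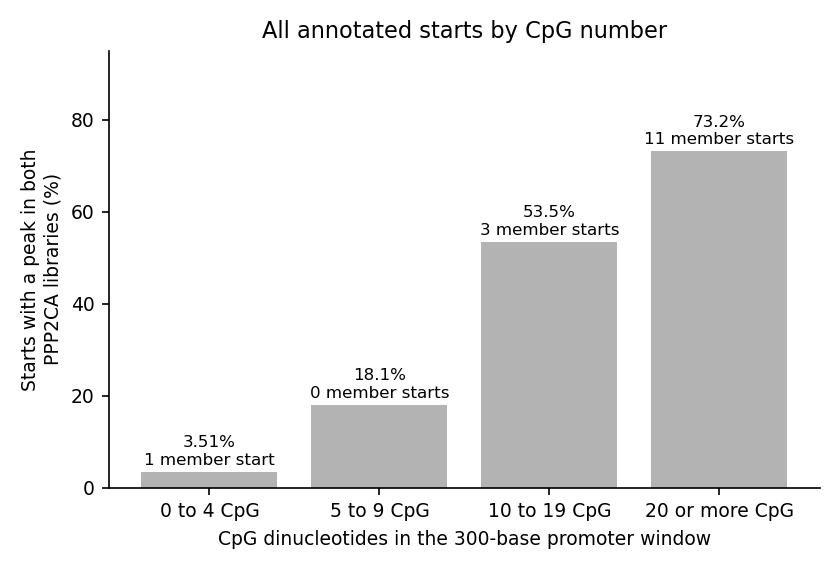
Share of all annotated starts of protein-coding genes with a peak in both PPP2CA libraries within 1 kb, by the number of CpG dinucleotides in the promoter window; the number of member starts in each class is written above its bar. The share is 3.51% in the lowest class and 73.2% in the highest, which holds 11 of the 15 member starts.

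In the promoter windows, searched on both strands, the GC box GGGCGG was found in 10 of the 15 member windows, from 7 genes, against 46.2% of all windows. The ETS core CCGGAA was found in 5 member windows (18.7% of all), one of them Mcl1 with 2 copies just before the start. The CCAAT box was in 4 (38.2%) and the E box CACGTG in 2, at Bax and at the last start of Bbc3 (7.84%). The FOXO core TGTTTAC was in 2, at Bcl2l11 and Bbc3 (3.01%). The TATA box TATAAA (12.6%), the AP-1 site TGANTCA (6.99%) and the CRE TGACGTCA (2.23%) were in none of the 15. A match shows letters in a window and not a bound factor.

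The rest of the mitochondrial death pathway was read by the same rule. Of 15 other BCL2 family genes, 6 had a peak in both PPP2CA libraries (40%, near the 47.1% of all genes), and none had an IgG peak. The best ranked by −log10 q were Bnip3l (75 and 94 fragments in PPP2CA 1 and 2), Bcl2l13 (62 and 81) and Bnip3 (40 and 49). Bnip3 and Bnip3l are mitophagy receptors. The anti-apoptotic Bcl2l10 and the 3 Bcl2a1 copies (Bcl2a1a, Bcl2a1b, Bcl2a1d) had no peak, nor had the BH3-only genes Hrk and Bik, nor Bcl2l14. Reads from near-identical Bcl2a1 copies may have been lost in mapping. Bok and Bcl2l15 had a peak in PPP2CA 2 alone.

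Downstream of the family, 12 of 13 genes had a peak in both PPP2CA libraries. The best ranked were Diablo, whose product frees caspases from their inhibitors (99 and 96 fragments), and the mitochondrial channel genes Vdac2 (96 and 99) and Vdac1 (86 and 98). Among upstream regulators of the members, 10 of 11 were called. They were led by the stress-response factor Ddit3 (367 and 377 fragments), the MCL1 ubiquitin ligase Huwe1 (156 and 188) and the MCL1 deubiquitinase Usp9x (159 and 182), and Trp73 had none. Huwe1 also had an IgG peak in its window. Like the members, these lists were drawn up with results of these data known.

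**Figure D5:**
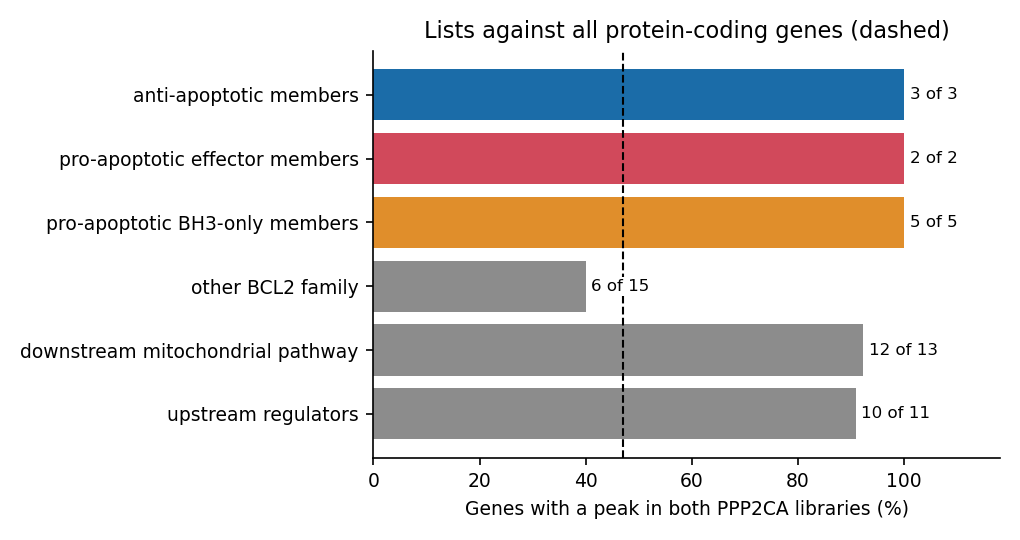
Share of each gene list with a peak in both PPP2CA libraries, with the number called of the number listed; the dashed line is the 47.1% of all protein-coding genes. All member groups are at 100%, the other BCL2 family genes at 40% and the downstream and upstream lists above 90%.

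The genes most like Mcl1, the best ranked member, in the fragments of their strongest peak over the 4 libraries were B9d2, Tmem91 and Insig1, at a Euclidean distance of 0.037 to 0.0377 in log2(fragments + 1). B9d2 and Tmem91 had 197 and 236 fragments in PPP2CA 1 and 2 and Insig1 196 and 236, with no IgG peak. B9d2 and Tmem91 both lie on chromosome 7 with the same counts, so they may share a peak and need not be separate matches. With 4 libraries that fall into 2 groups, this likeness amounts to a similar height.

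As a check of the cell type by peaks rather than by expression, 6 of 10 stem cell marker genes had a peak in both PPP2CA libraries, close to the background. Kit, Mecom, Gata2, Meis1, Runx1 and Tal1 were called, while Cd34, Slamf1, Procr and Hlf were not, and Hlf had an IgG peak. Gata2 was called through strongest peaks of 15 and 22 fragments, and no peaks of the PPP2CA libraries overlapped in its window. Of markers of other cells, 1 of 5 T cell (Cd3d), 0 of 4 B cell, 0 of 5 myeloid, 2 of 4 erythroid (Klf1, Epor) and 1 of 4 stromal and endothelial genes (Pecam1) were called. What part other cells had in the members' peaks was not tested.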

How the data were processed

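The authors' files are narrowPeak lists, separate for each library. Per the submitters' processing notes, the tools were MACS2, BWA, HOMER, Trimmomatic, ChIPseeker and deepTools, with mm10 and GRCm38 as builds; no role, version or setting comes with them. The deposited lists give each peak's fold (a ratio of summit signal over the background predicted there), −log10 p, −log10 q, a score that follows −log10 q, and the summit position. The sources used here do not state if MACS2 was run with IgG as its control, and so whether the predicted background came from the same library. The deposited values were used within a library.

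Fragments (n) and local background (b) at a summit were solved from fold = (n + 1) / (b + 1) and a Poisson tail for p. A whole n was found for 100% of peaks, within a relative error of 2e-05. The lists held 16811 and 17686 PPP2CA peaks and 561 and 310 IgG peaks, with median summits of 18 fragments for PPP2CA and 4 for IgG in either replicate. Total reads were not used here.

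Genes came from a RefSeq table of GRCm38.p6 and starts from RefSeq promoter windows. Entries below 3 Mb outside chromosome Y (340 of all kinds) were left out. Overlap meant at least 1 bp. Groups and replicate numbers came from sample titles; nothing says that libraries came from separate animals. With 2 libraries per group an exact permutation test cannot go below a p of 0.333, so none is given. Members and lists were chosen with earlier results of these data known. The text names all members with up to 3 regions each, neighbouring genes within 1 kb, the 3 best ranked and the uncalled genes of each pathway list, and the 3 genes nearest to the best ranked member; the listed stem cell markers and the called markers of other cells are also named. A gene of the pathway lists is not reported here by name. Recovery, overlap and dispersion were tested on simulated data. Python 3.11.15, numpy 2.4.6, pandas 2.3.3, scipy 1.17.1 and matplotlib 3.10.9 were used.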

Additional observations from a re-analysis of the deposited data

How the results depend on the processing

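Of 75 recomputed counts, 73 stayed within 1.5 times the value reported. With 1 kb around gene boundaries in place of the whole gene, 1 of 3 anti-apoptotic members was called, because the Mcl1 and Bcl2l1 starts used lie inside their outermost boundaries; all 7 pro-apoptotic members kept a peak. With summits of at least 20 fragments, 6642 protein-coding genes were called against 10246. Members called in both PPP2CA libraries numbered 8 to 10 over all settings, and those with an IgG peak 0 in every setting. Leaving out either PPP2CA library gave 10 members, 18 to 19 regions and 11207 to 11420 genes. With a peak of each library required in the window, a setting chosen after seeing the data, 16 regions in place of 17 were found in both libraries. Within 500 bp of a start, 9 of 10 members kept a peak. No paired analysis was possible because no result comes from a test between the groups. Depth limits the IgG reading most at Bcl2, Pmaip1, Bak1 and Bid, and to a lesser degree at Bax.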

Other observations

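The nearest IgG peak to a member gene lay 21.8 kb from Bbc3 and 31.7 kb from Mcl1. For the other members the distance ran from 195 kb (Bcl2) to 2614 kb (Bcl2l11).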
